A study of Mus musculus with 2 samples.

Results

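The DNA replication genes described here were a list of 43 genes whose products license origins, unwind the DNA, copy it, supply its nucleotides and repack the new strands. They were found by their symbols among the 31053 genes counted in single cells of mouse eyecups, and all 43 were present in both libraries. The eyecups, which held retina, lens and blood, were taken at E13.5 (embryonic day) and dissociated with papain. The control was Six3+/-;Six6+/- and the DKO was Six3F/F;Six6-/-;a-Cre, with 1 library from the eyecups of 1 embryo per genotype. Both groups thus carried a mutant Six6 allele, and the control also carried 1 null allele of Six3, which had arisen from leaky a-Cre activity in germ cells. Six6 was deleted in the germline and therefore in every cell of the DKO, whereas a-Cre acts in the peripheral retina only, so the DKO retina mixed cells that had lost Six3 with cells that had kept it. With 1 library per genotype no difference between the genotypes could be tested, and genotype, embryo, dissection and library cannot be told apart. All intervals are exact 95% intervals that cover counting error only.

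A cell copies its genome once per cycle. In G1 the origin recognition complex, Cdc6 and Cdt1 load rings of the Mcm helicase onto DNA, and in S phase Cdc45 and the GINS proteins turn these rings into active forks at which polymerases, the Pcna clamp and the clamp loader work. Many of these genes are transcribed under E2F factors at the passage from G1 to S, and they are shut down when a retinal progenitor leaves the cycle to become a neuron.

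Promoter sequences from RefSeq (GRCm38.p6) were read for an E2F word, because the members share an on and off pattern that was described per cell class. The words searched were TTTCCCGC, TTTGGCGC, TTTCGCGC and TTTGCCGC on both strands, in a window of 250 bases before to 50 bases after the start, and overlapping words were counted separately. The table held 42 promoters for 37 of the 43 members, and Mcm4, Gins1, Gins2, Pole, Rfc2 and Tipin had no entry. At least 1 word stood in 15 of the 42 member promoters (35.7%), against 744 of all 32851 promoters (2.26%). Counted per gene, a word stood in 15 of 37 members (40.5%) and in 704 of all 27025 genes (2.605%). Among other replication genes, listed apart from the members, it stood in 11 of 38 (28.9%), so the words were not particular to the members. The member promoters were richer in G+C than all promoters, with medians of 62.2% and 52.7%. Among promoters with 55 to 70% G+C, a range chosen after the values had been seen, the share was 13 of 28 (46.4%) for the members and 452 of 11266 (4.01%) for all. The 15 members with a word were Orc1, Cdc6, Cdt1, Mcm3, Mcm5, Mcm6, Mcm7, Gins3, Pola1, Pold1, Pold3, Rfc3, Lig1, Clspn and Uhrf1. A match is a description of letters and not a binding site. The 180 bases before the start are printed for 5 members on which the results turn, 5' to 3' on the strand of the gene. Capitals mark the E2F words, including the reverse complement and runs in which words on both strands overlap. Mcm6 and Mcm5 encode helicase subunits and Cdc6 a loader, whereas the printed stretches of Rrm2 and Ung, the members with the lowest ratios in neurogenic-like cells, held none of these words.
Mcm6 (chr1:128359706-128359885, minus strand): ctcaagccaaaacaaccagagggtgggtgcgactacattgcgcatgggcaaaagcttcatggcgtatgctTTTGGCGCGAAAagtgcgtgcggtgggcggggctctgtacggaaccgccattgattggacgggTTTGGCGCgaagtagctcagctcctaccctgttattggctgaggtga
Mcm5 (chr8:75109329-75109508, plus strand): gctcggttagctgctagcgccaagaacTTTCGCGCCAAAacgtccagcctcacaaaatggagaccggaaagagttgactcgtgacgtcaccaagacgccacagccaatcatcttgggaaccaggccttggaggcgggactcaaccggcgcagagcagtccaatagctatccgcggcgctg
Cdc6 (chr11:98907971-98908150, plus strand): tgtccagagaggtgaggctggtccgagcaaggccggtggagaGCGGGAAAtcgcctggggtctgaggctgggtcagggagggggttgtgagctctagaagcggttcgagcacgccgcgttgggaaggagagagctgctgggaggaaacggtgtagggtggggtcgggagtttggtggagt
Rrm2 (chr12:24708074-24708253, plus strand): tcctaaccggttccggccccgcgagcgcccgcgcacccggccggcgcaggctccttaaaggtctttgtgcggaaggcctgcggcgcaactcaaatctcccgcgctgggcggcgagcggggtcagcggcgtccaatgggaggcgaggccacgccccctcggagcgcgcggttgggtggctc
Ung (chr5:114130255-114130434, plus strand): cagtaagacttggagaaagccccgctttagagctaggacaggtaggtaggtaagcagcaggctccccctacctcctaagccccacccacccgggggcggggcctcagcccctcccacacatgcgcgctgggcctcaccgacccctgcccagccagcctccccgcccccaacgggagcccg

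In Mcm6 the words began 110, 106 and 47 bases before the start, and in Mcm5 they began 153 and 149 bases before it. In Cdc6 the only word began 138 bases before the start. Among the Mcm2 to Mcm7 genes with an entry, Mcm3, Mcm5, Mcm6 and Mcm7 held a word and Mcm2 did not.

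The control library held 10315 cells and 85589515 unique molecular identifiers (UMIs, 1 per captured mRNA molecule), and the DKO library 12672 cells and 85173276 UMIs. The members took 0.283% and 0.246% of these. After the study's limits on genes and mitochondrial UMIs, 9822 and 12146 cells remained, with medians of 7620 and 5879 UMIs. Since the DKO cells were shallower, each cell was thinned at random to 2000 UMIs, which left out 1265 control and 1566 DKO cells (12.9% in both). The remaining 8557 and 10580 cells were classed by summed UMIs of marker genes that are no members. Retinal cells were classed as naïve-like, neurogenic-like, margin-like (the rim from which ciliary margin and iris form) and neuronal-like cells. The control had 3947, 1272, 319 and 1293 cells of these classes, the DKO had 3490, 1320, 959 and 3372, and 134 and 259 retinal cells stayed unassigned. Each of the 15 neurogenic, 14 margin and 20 neuronal markers was highest in its own class in both libraries. Since the cells were classed by the sums of these same markers, this was nearly fixed in advance and does not test the classes. For Gm14226 in the DKO it rested on 0.379 UMIs per 1000000 thinned UMIs in neurogenic-like cells. Of the 18 naïve markers only 9 in the control and 10 in the DKO were highest in naïve-like cells, so that class rests on the absence of the other markers as well. The libraries shared 22 cell barcodes. Six6, which lost its homeodomain fragment in the DKO, was at 374 and 43.8 UMIs per 1000000 thinned UMIs (CPM) in naïve-like cells of the control and DKO. Six3 was at 299 and 260 CPM in naïve-like, 272 and 274 CPM in neurogenic-like, 248 and 144 CPM in margin-like and 695 and 574 CPM in neuronal-like cells. The counted 3' end lies outside its deleted exon 1, so these values report remaining mRNA and do not show the deletion itself. The paper reports that bulk RNA-seq coverage of compound mutant retinas was reduced at the 3' regions too. It used low Six3 mRNA, which matched Cre-positive areas, to delineate Six3-deficient cells.

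The replication genes separated dividing from neuronal-like cells in both libraries. Per cell of 2000 UMIs the control held 7.82 (7.73 to 7.91) member UMIs in naïve-like cells, 6.49 (6.35 to 6.63) in neurogenic-like cells, 5.68 (5.42 to 5.94) in margin-like cells and 1.69 (1.62 to 1.77) in neuronal-like cells. The DKO held 8.23 (8.14 to 8.33), 4.60 (4.49 to 4.72), 3.88 (3.76 to 4.01) and 1.62 (1.58 to 1.66). The order of the classes was thus the same in both libraries, with no overlap between neighbouring intervals. Cells without a single member UMI made up 2.03% of naïve-like, 8.02% of neurogenic-like, 4.08% of margin-like and 21.3% of neuronal-like cells in the control. In the DKO these shares were 2.41%, 13.1%, 13.2% and 23.1%. Red blood-like cells, in which free RNA from other cells would also be counted, held 0.70 and 0.76 member UMIs per cell. How much of the neuronal-like level was free RNA was not tested.

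**Figure D1:**
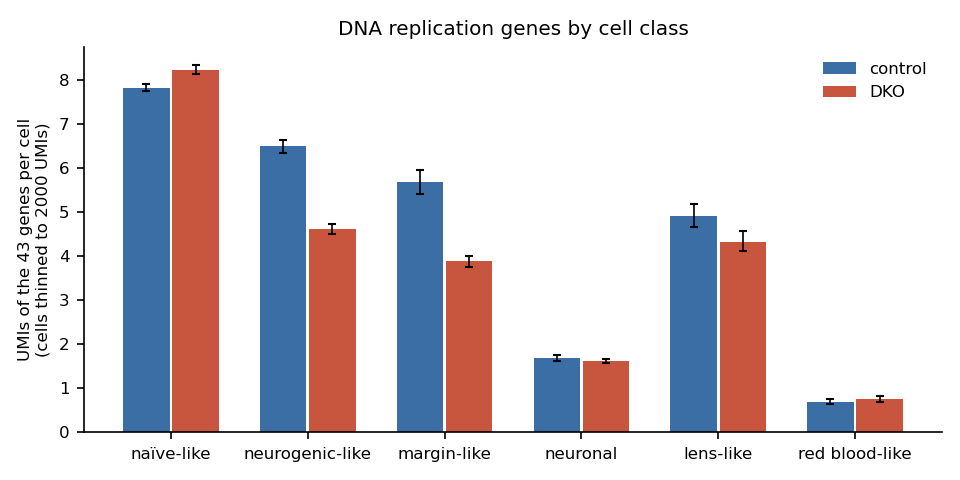
UMIs of the 43 replication genes per cell after thinning to 2000 UMIs, by cell class and library, in retinal, lens-like and red blood-like cells, with exact 95% Poisson intervals that cover counting error only. Naïve-like cells were at 7.82 in the control and 8.23 in the DKO, whereas the DKO was the lower library in neurogenic-like (6.49 and 4.60) and margin-like cells (5.68 and 3.88).

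Each of the 43 members was lowest in neuronal-like cells in both libraries. In the control 38 members were highest in naïve-like cells, 4 in neurogenic-like cells (Mcm7, Rrm1, Rrm2 and Clspn) and 1, Rpa1, in margin-like cells. In the DKO all 43 were highest in naïve-like cells. Rrm2, the regulated subunit of the reductase that makes deoxynucleotides, showed the contrast between the libraries most clearly. In the control Rrm2 was at 104 CPM in naïve-like and 203 CPM in neurogenic-like cells, a log2 ratio of neurogenic-like over naïve-like of 0.96 (0.80 to 1.13). In the DKO it was at 122 and 101 CPM, a log2 ratio of -0.27. The median member was 5.59-fold higher in naïve-like than in neuronal-like cells of the control and 6.07-fold higher in the DKO. In the control the fold was widest for Cdc6, with 209 UMIs in naïve-like and 2 in neuronal-like cells, and for Ung, which removes uracil from DNA. In the DKO it was widest for Clspn, at 25.9-fold, and Cdc6, at 22.9-fold. In both libraries it was narrowest for Orc6, an origin recognition subunit at 142 and 75.4 CPM in the control, and for Rpa3, a subunit of the single-strand binding complex at 44.2 and 23.2 CPM in the control.

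Within the cycle most members peaked in the same window, but not all. Cells were placed in windows by genes that are no members. A replicating window held at least 4 UMIs of 20 other S phase genes and was divided at 5 UMIs of replication-dependent histones, whose mRNA accumulates while DNA is copied. A G2/M window held at least 9 UMIs of 52 mitotic genes, and the remaining cells formed a low window. In naïve-like cells of the control 36 members were highest in the histone-rich window and 7 in the histone-poor window, namely Mcm2, Mcm3, Mcm4, Mcm5, Cdc6, Orc1 and Ung. Among the 7, the interval of histone-poor over histone-rich was wholly above 0 for Orc1 and Ung alone, and among the 36 it was wholly below 0 for 30. Of the 36 and the 7, 33 and 6 peaked in the same window in the DKO. None peaked in the low or G2/M window of naïve-like cells in either library, whereas 2 peaked in the G2/M window of neurogenic-like control cells. The low and G2/M windows hold cells with fewer than 4 UMIs of S phase genes of the same programme. Few peaks there were therefore largely set by the windows themselves. Peaks of all genes were not counted by window, so the counts of member peaks have no background beside them. In naïve-like control cells the histone-rich window held more UMIs of the 20 S phase genes than the histone-poor one, 7.16 against 6.12 per cell. It also held more UMIs of the mitotic genes. The part of either in the histone-rich peaks was not tested.

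Ung had the steepest histone-poor peak. Its level in naïve-like cells of the control was 38.2 CPM in the low window, 92.4 in the histone-poor window, 38.3 in the histone-rich window and 19.9 in G2/M, and in the DKO 24.3, 102, 34.7 and 13.0. Mcm3, a helicase subunit, was at 86.0, 177, 154 and 100.2 CPM in the control and at 80.4, 245, 187 and 108 CPM in the DKO. Rrm2, Clspn, Cdc45 and Pcna were examples of the 36 members with a histone-rich peak. Rrm2 was at 25.6, 97.2, 183 and 84.1 CPM in the control and at 18.0, 110, 218 and 77.7 CPM in the DKO. Clspn, which links the fork to the checkpoint kinase, was at 24.5, 137, 259 and 103 CPM in the control and at 20.1, 125, 238 and 87.7 CPM in the DKO. Cdc45, part of the active helicase, was at 7.97, 35.2, 66.1 and 18.3 CPM in the control. Pcna, the sliding clamp, was at 53.5, 97.6, 173 and 72.6 CPM in the control and at 40.9, 145, 180 and 73.9 CPM in the DKO. Histone UMIs per naïve-like cell were themselves higher in the DKO, 7.21 against 5.13, so the border between the histone-poor and histone-rich windows need not mark the same point of the cycle in both libraries. The part of this in the window values was not tested.

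**Figure D2:**
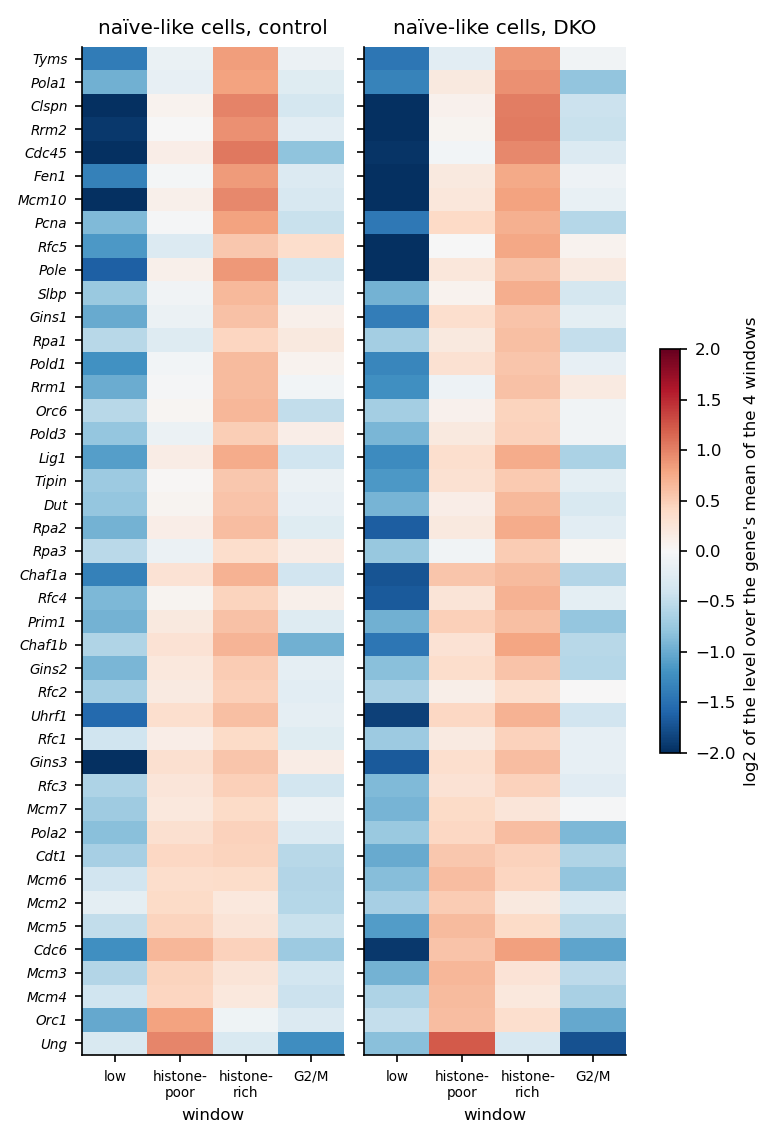
Level of each replication gene in the 4 windows of naïve-like cells, for the control and the DKO, as log2 of its CPM over its mean across windows, with the colour scale ending at 2 in both directions. Ung, Orc1, Cdc6 and Mcm2 to Mcm5 were highest in the histone-poor window of the control, of which Orc1 and Ung had intervals that set this window above the histone-rich one, and the other 36 members were highest in the histone-rich window.

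In naïve-like cells the replication genes were at nearly the same level in both genotypes. The summed log2 ratio of the DKO over the control was 0.07 (0.05 to 0.10). This small excess turned to -0.077 when 20 class markers known to change in the mutant were left out. It turned to -0.13 when only DKO cells without a Six3 UMI were set against all control cells. Naïve-like cells without a Six3 UMI held 7.13 member UMIs in the control and 7.14 in the DKO. All 43 members passed the filter of 20 UMIs over both libraries, and none was past 1.5-fold lower, where 4.89% of all genes were, or past 1.5-fold higher, where 7.88% of all genes were. The median member ratio was 0.05 and that of all genes 0.03. Rpa3 was the furthest above, at 44.2 and 65.3 CPM, a log2 ratio of 0.56 (0.36 to 0.77). Mcm3 was at 137 and 166 CPM, and the log2 ratios of Mcm3, the clamp loader subunit Rfc4 and the fork protection gene Tipin were all 0.27. Cdt1, which loads the helicase and is destroyed once replication begins, was the furthest below at this thinning, at 59.0 and 43.8 CPM, a log2 ratio of -0.43 (-0.64 to -0.22). Orc1 and Mcm10, which recognises origins and helps to start forks, respectively, were at -0.27 and -0.25, with intervals that included 0. Over all UMIs Orc1 was at -0.32 (-0.56 to -0.07), below Cdt1 at -0.23, and Mcm10 at 0.012, so the order at the lower end depended on the thinning.

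In neurogenic-like cells, which carry proneural factors such as Atoh7 and are about to leave the cycle, the level of the replication genes was lower in the DKO. The summed log2 ratio was -0.49 (-0.54 to -0.45). Of 42 members past the filter, which Orc1 with 9 and 8 UMIs missed, 40 were below 0, against 47.4% of all genes. Of the 42, 24 had an interval wholly below 0. The share of all genes with such an interval was not counted in any class, so counts of intervals have no background beside them. Of these 42, 12 were past 1.5-fold lower, against 7.22% of all genes, and none was past 1.5-fold higher, against 9.66% of all genes. The median member ratio was -0.49 and that of all genes 0.02. These cells had a median of 6794 UMIs in the control and 4760 in the DKO before thinning, and their neuronal marker UMIs were 6.42 and 8.10 per cell. The part of either in the lower level was not tested. At a single thinning a weak gene rests on few UMIs, so the ratio over all UMIs of the same cells is also given below.

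By role, nucleotide supply and fork protection had the lowest summed log2 ratios in neurogenic-like cells, -0.66 (-0.76 to -0.55) and -0.65 (-0.83 to -0.47). All 5 nucleotide genes had intervals below 0. Ung was at 24.8 CPM in the control and 8.33 CPM in the DKO, from 63 and 22 UMIs, a log2 ratio of -1.57 (-2.34 to -0.85), and at -1.24 over all UMIs. Rrm2 was at 203 and 101 CPM, -1.01 (-1.23 to -0.79), and at -0.89 over all UMIs. Rrm2 had a UMI in 26.7% (24.3 to 29.2) of control and 13.9% (12 to 15.8) of DKO neurogenic-like cells at equal depth, against 2.03% and 1.63% of red blood-like cells, and in 47.6% and 26.9% before thinning. Red blood-like cells had medians of 8758 and 6834.5 UMIs before thinning. Tyms, which makes thymidylate, was at 118 and 74.2 CPM, -0.67 (-0.94 to -0.41), and at -0.41 over all UMIs, short of the 1.5-fold limit. Dut, which destroys dUTP, was at 279 and 196 CPM, -0.51 (-0.68 to -0.35), and Rrm1, the large reductase subunit, at a ratio of -0.38 (-0.62 to -0.14).

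At the fork, Clspn (GRCm38 chr4:126556935-126593903, plus strand) was at 146 and 79.2 CPM in neurogenic-like cells, a log2 ratio of -0.89 (-1.14 to -0.64), and at -0.72 over all UMIs. Pold1, the catalytic subunit of the lagging strand polymerase, was at 24 and 12.5 CPM and at -0.94 (-1.60 to -0.31). Fen1, which trims the flaps of Okazaki fragments, was at 64.5 and 39.4 CPM and at -0.71 in both readings. All 6 helicase genes Mcm2 to Mcm7 had intervals below 0, with Mcm5 lowest at -0.69 (71.9 and 44.7 CPM) and Mcm3 at -0.65 (98.7 and 62.9 CPM). Behind the fork, Uhrf1, which carries DNA methylation to the new strand, was at 103 and 62.1 CPM (-0.73) and Chaf1a, a histone chaperone subunit, at 59.0 and 36.7 CPM (-0.68). Cdt1 was at 39.3 and 26.1 CPM (-0.59), and the GINS subunit Gins3 was at 11 and 7.20 CPM (-0.61), with an interval that included 0. The other end of the list was Rpa3 at 42.8 and 52.7 CPM, a log2 ratio of 0.30 (-0.07 to 0.67) and of 0.52 (0.32 to 0.72) over all UMIs. Pola2 and Gins1 followed at 0.05 and -0.02, from 26 and 28 and from 42 and 43 UMIs.

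The order of single genes was less firm than the direction. Over all UMIs 42 of 43 members were below 0 in neurogenic-like cells and 37 had an interval below 0, with Rpa3 as the exception. The count past 1.5-fold lower was 12 at the main thinning, 16 with another random seed and 10 over all UMIs. The 6 members past it in all 3 readings were Mcm5, Gins3, Fen1, Rrm2, Ung and Clspn. The shares of all genes past the limit and below 0 were counted at the main thinning only.

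**Figure D3:**
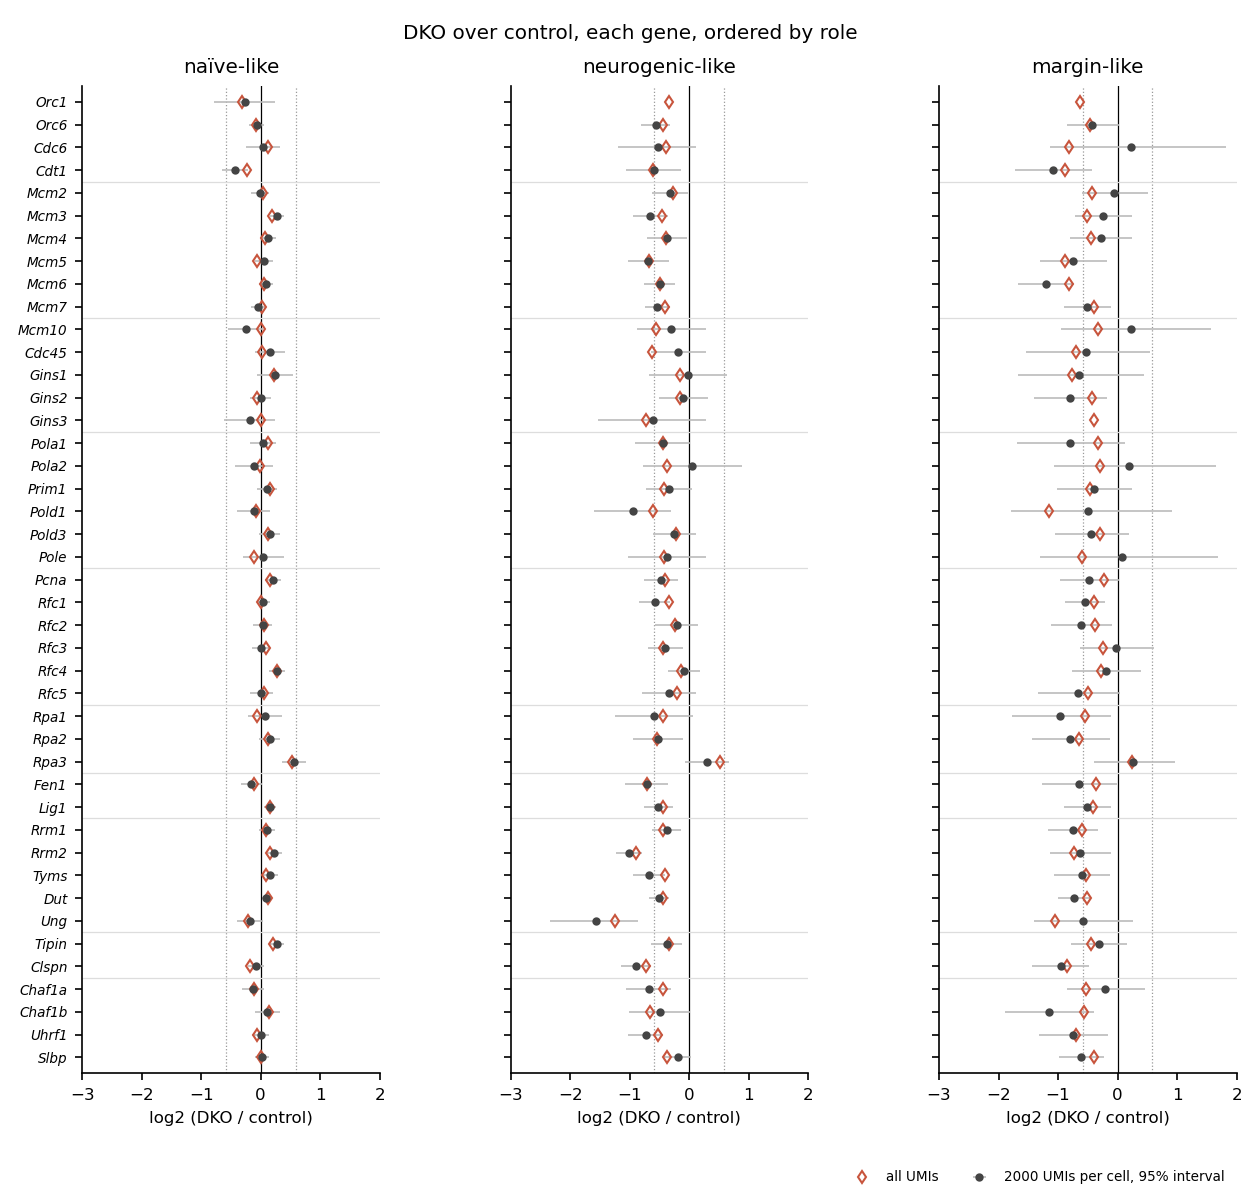
Log2 ratio of DKO over control for each of the 43 replication genes in naïve-like, neurogenic-like and margin-like cells. Filled points are thinned cells with exact 95% intervals that cover counting error only, drawn for members past the filter, open diamonds are all UMIs of the same cells, and dotted lines mark 1.5-fold, past which 0, 12 and 20 members were lower.

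In margin-like cells the summed log2 ratio was -0.55 (-0.63 to -0.47). Here 41 members passed the filter, without Orc1 and Gins3. Of these 36 were below 0, against 49.1% of all genes, and 19 had an interval wholly below 0, a count again without a background. Past 1.5-fold lower were 20, against 10.4% of all genes, and past 1.5-fold higher none, against 13.3% of all genes. The median member ratio was -0.55 and that of all genes 0.02. The control rested on 319 cells and 1811 member UMIs, so single ratios varied with the thinning. The DKO cells held more margin marker UMIs, 7.996 against 5.44 per cell, and more pigment epithelium marker UMIs, 0.48 against 0.11. The part of either in the lower level was not tested.

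The 5 nucleotide genes were past the limit in margin-like cells, against 3 of them in neurogenic-like cells. Dut was at 277 and 168 CPM, a log2 ratio of -0.72 (-0.99 to -0.45), and Rrm1 at 118 and 69.9 CPM, -0.75 (-1.17 to -0.32). Rrm2 was at 79.9 and 51.6 CPM (-0.63), Tyms at 90.9 and 60 CPM (-0.60) and Ung at 31.3 and 20.9 CPM (-0.59). Over all UMIs Ung was at -1.05 (-1.39 to -0.70), Rrm2 at -0.73 and Rrm1 at -0.60, while Tyms at -0.53 and Dut at -0.52 were short of the limit. Fork and chromatin genes followed the same direction. Clspn was at 97.2 and 50.1 CPM, -0.96 (-1.43 to -0.47), and at -0.86 over all UMIs. Uhrf1 was at 64.3 and 38.1 CPM (-0.76), and Slbp, which binds histone mRNA, at 146 and 95.4 CPM (-0.61). Mcm5 was at 67.4 and 40.1 CPM (-0.75), and at -0.89 over all UMIs. The single-strand binding subunits parted, since Rpa1 was at -0.96 and Rpa2 at -0.80, but Rpa3 at 0.26 (-0.39 to 0.96).

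The 3 lowest ratios of margin-like cells did not hold their size. Mcm6 was at 110 and 47.4 CPM, a log2 ratio of -1.21, and at -0.23 with another seed and -0.82 over all UMIs. Chaf1b, the partner of Chaf1a, was at -1.15, at 0.16 with another seed and at -0.57 over all UMIs, and Cdt1 was at -1.09, 0.03 and -0.89. The members named by the 1.5-fold limit also included Gins2 and Pola1 at -0.80, Rfc5 at -0.66, Fen1 at -0.65, Gins1 at -0.64 and Rfc2 at -0.62. At the upper end, below Rpa3, Cdc6 and Mcm10 were both at 0.22 from 6 and 8 control UMIs, but at -0.82 and -0.34 over all UMIs. The count past the limit was 20, 17 with another seed and 15 over all UMIs. The 7 members past it in all 3 readings were Mcm5, Rpa2, Rrm1, Rrm2, Ung, Clspn and Uhrf1. Here too the shares of all genes past the limit and below 0 were counted at the main thinning only. Over all UMIs 42 of 43 members were below 0, 37 with an interval below 0, and Rpa3 was again the exception at 0.25 (-0.02 to 0.52).

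In neuronal-like cells the summed log2 ratio was -0.07 (-0.14 to 0.01). Of 40 members past the filter 3 were past 1.5-fold lower, against 6.92% of all genes, and 1 was past 1.5-fold higher, against 11.8% of all genes. The 3 were Rpa2 (11.6 and 5.34 CPM, -1.12), Clspn (9.28 and 5.19 CPM, -0.84) and Rrm2 (10.4 and 6.08 CPM, -0.78). Over all UMIs they were at -0.30, -0.73 and -0.38, so that Clspn alone stayed past the limit. Pole, the leading strand polymerase, was at 0.79 from 4 and 18 UMIs, and at 0.10 over all UMIs. Gins2 was at 20.1 and 29.2 CPM, 0.54 (0.09 to 1.01), and Lig1, which seals Okazaki fragments, at 30.5 and 40.9 CPM, 0.42 (0.06 to 0.80).

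Rpa3 (GRCm38 chr6:8255936-8259173, minus strand) stood apart from its complex. Its log2 ratio over all UMIs was 0.53 (0.44 to 0.63) in naïve-like, 0.52 (0.32 to 0.72) in neurogenic-like, 0.25 (-0.02 to 0.52) in margin-like and 0.57 (0.35 to 0.80) in neuronal-like cells. Its partner Rpa2 was at 0.12, -0.53, -0.65 and -0.30. In lens-like cells, which do not belong to the retina, Rpa3 was at 48.3 CPM in the control and 67.6 CPM in the DKO, from 29 and 43 UMIs.

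The lists that set the windows differed too. The 20 S phase genes were at 4.34 and 3.03 UMIs per neurogenic-like cell, 3.72 and 2.51 per margin-like cell, 4.77 and 4.85 per naïve-like cell and 1.08 and 0.997 per neuronal-like cell. The 52 mitotic genes were at 18.6 and 15.2, 10.1 and 8.95, 14.1 and 16.6, and 3.94 and 3.76 in the same order.

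The share of cells in the replicating window and the level inside it were read separately. The S phase genes that set the window were lower by nearly the same ratio as the members, -0.52 in neurogenic-like and -0.57 in margin-like cells. Fewer replicating cells and less of the whole programme per cell cannot be told apart by this window. In neurogenic-like cells the replicating window held 49.3% of control and 31.7% of DKO cells, a difference of -17.6 percentage points (-21.4 to -13.8). In margin-like cells it held 44.8% and 25%, a difference of -19.8 points (-26.1 to -13.6). Inside the window the members were at 10.1 and 9.46 UMIs per neurogenic-like cell, a log2 ratio of -0.10 (-0.16 to -0.04), and at 8.03 and 7.84 per margin-like cell, -0.03 (-0.14 to 0.07). In naïve-like cells the window held 61.2% and 60.5%, and the level inside it was 9.58 and 10.5, a log2 ratio of 0.13 (0.11 to 0.16). Of neuronal-like cells 4.72% and 3.29% were in the window, whose limit was set so that fewer than 5% of control neuronal-like cells reached it.

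**Figure D4:**
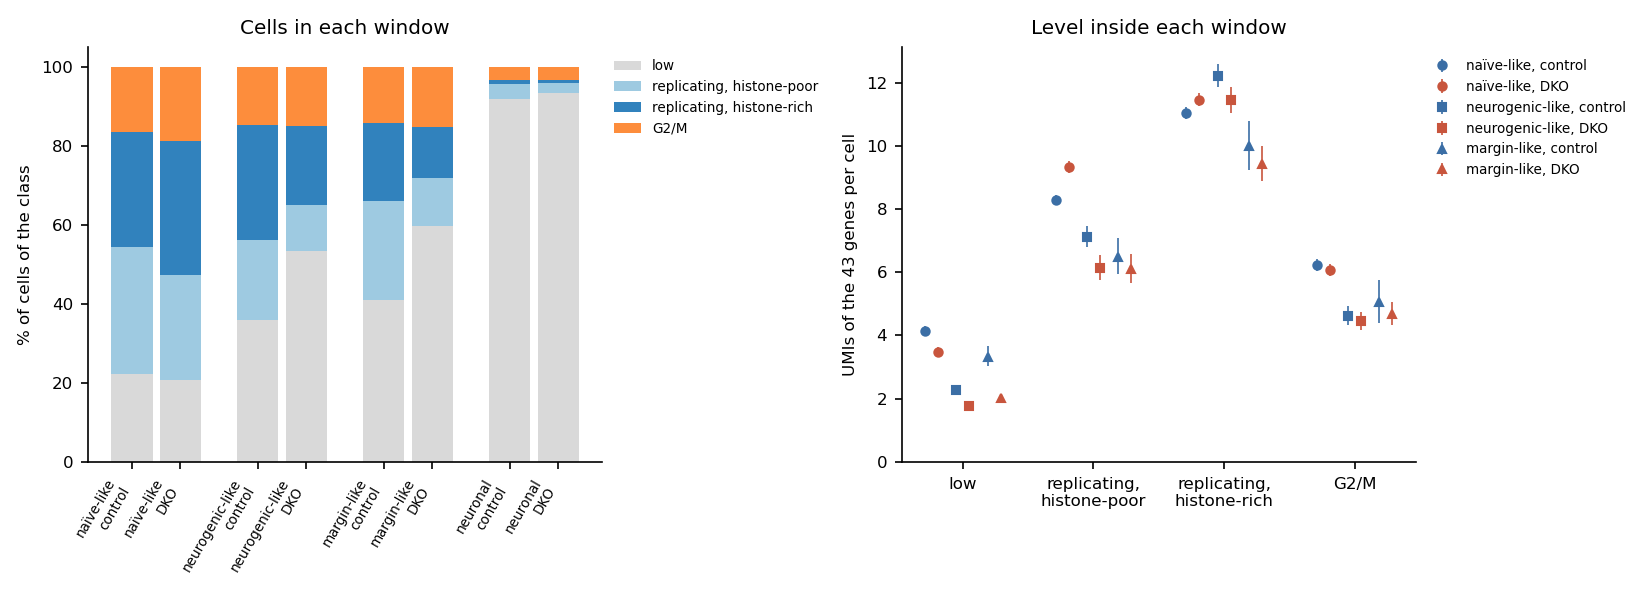
Left, share of the cells of each class in the 4 windows of the cycle, by library. Right, UMIs of the 43 replication genes per cell inside each window, with exact 95% Poisson intervals that cover counting error only. The replicating windows together held 49.3% of control and 31.7% of DKO neurogenic-like cells, and the members were at 10.1 and 9.46 UMIs per cell inside them. The right panel leaves out neuronal-like cells.

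The low window differed as well. There the members were at 2.26 and 1.76 UMIs per neurogenic-like cell, a log2 ratio of -0.36 (-0.49 to -0.24), and at 3.33 and 2.02 per margin-like cell, -0.72 (-0.88 to -0.56). Naïve-like cells of the low window were also lower in the DKO, at 4.15 and 3.48, although the class as a whole was not. When the DKO levels were weighted by the window shares of the control, the DKO mean was 5.86 in neurogenic-like and 4.89 in margin-like cells, which left log2 ratios of -0.15 and -0.22. Over all retinal cells the levels were 6.32 and 4.82 (-0.39), and 6.05 (-0.06) at the control shares. The S phase genes that define the window were chosen as no members, but they belong to the same programme, and a cell is placed by few UMIs at this depth.

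Single members were also read inside the replicating window. In naïve-like cells of the window 0 of 43 were lower, against 5.31% of all genes, and 1, Rpa3 at 0.65, was higher, against 6.91%. Among the 42 members past the filter in neurogenic-like cells 1 was lower, Ung at -1.42 (-2.38 to -0.55), and Pola2 was at the upper limit with 18 UMIs in each library. All genes were at 7.88% lower and 9.52% higher there. In margin-like cells 3 of 37 were lower, Mcm6 at -0.72, Rfc2 at -0.64 and Chaf1b at -0.90, and 2 were higher, Mcm10 at 0.84 and Rfc4 at 0.69. All genes were at 9.43% lower and 13% higher there, so these shares of the members were near or under the background. Rrm2, at -1.01 over all neurogenic-like cells, was at 352 and 254 CPM among those in the window, a log2 ratio of -0.47 (-0.71 to -0.23).

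Among neurogenic-like cells the difference between the libraries varied with the neuronal UMIs. With 0 to 2 neuronal marker UMIs the members were at 9.43 (9.12 to 9.76) UMIs per cell in the control and 9.57 (9.18 to 9.97) in the DKO, from 357 and 238 cells. With 3 to 6 they were at 8.15 and 5.82, with 7 to 11 at 3.87 and 2.72, and with 12 to 19 at 2.35 and 1.93. The intervals of the libraries therefore overlapped at the lowest step and were apart at each later one. Six3 in the same steps was at 230 and 336 CPM, 233 and 245 CPM, 303 and 262 CPM, and 365 and 273 CPM, and its part in the pattern was not tested. Margin marker UMIs were read over naïve-like and margin-like cells together. There the DKO was the higher library with 0 or 1 margin UMI and the lower one at each later step. Without a margin UMI the members were at 8.04 (7.91 to 8.17) and 8.92 (8.78 to 9.07). With 1 they were at 7.79 (7.64 to 7.94) and 8.13 (7.96 to 8.30). With 2 to 3 they were at 7.39 and 6.91, with 4 to 5 at 5.73 and 5.04, and with 6 to 9 at 5.46 and 3.98. With 10 or more they were at 6.77 in the control, from 13 cells only, and at 2.36 (2.18 to 2.55) in the DKO, from 280 cells.

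**Figure D5:**
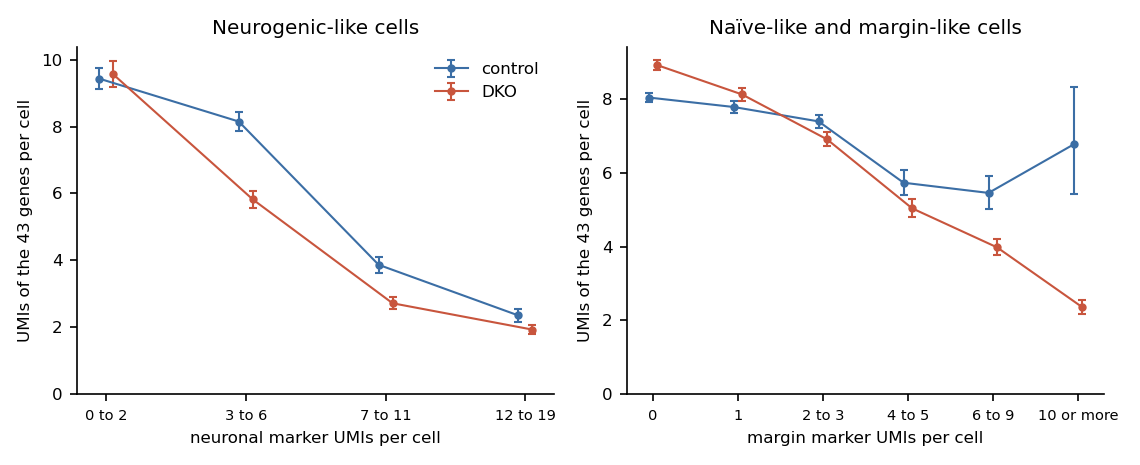
UMIs of the 43 replication genes per cell against neuronal marker UMIs among neurogenic-like cells and against margin marker UMIs among naïve-like and margin-like cells, by library, with exact 95% Poisson intervals that cover counting error only. The libraries were at 9.43 and 9.57 among neurogenic-like cells with 0 to 2 neuronal UMIs, and at 8.15 and 5.82 with 3 to 6.

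DKO cells without a Six3 UMI held fewer member UMIs than those with one. In neurogenic-like cells of the DKO the level was 3.40 (3.25 to 3.56) without and 5.40 (5.24 to 5.56) with a Six3 UMI, and 21.0% and 38.7% of these cells were in the replicating window, which is set by S phase genes of the same programme. In the control it was 6.53 (6.24 to 6.83) and 6.47 (6.32 to 6.64). Naïve-like cells of the DKO were at 7.14 without and 8.82 with a Six3 UMI, and those of the control at 7.13 and 7.95. Margin-like cells were at 3.50 and 4.27 in the DKO and at 4.06 and 5.88 in the control, where only 36 cells lacked a Six3 UMI. The control therefore showed the same direction in naïve-like and margin-like cells but not in neurogenic-like cells. Cells without a Six3 UMI were shallower before thinning, with medians of 4456 and 5034.5 UMIs in the neurogenic-like DKO cells, and a missing UMI does not show that the gene was deleted.

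Other genes of the pathway, listed apart from the members, had medians nearer to 0 than the members. The 20 S phase genes that are no members did not, with medians of -0.51 in neurogenic-like and -0.56 in margin-like cells, against -0.49 and -0.55 for the members. Of 47 other replication genes, 16 were past 1.5-fold lower in neurogenic-like cells, where 12 of 42 members were. There 1, Pold4 from 11 and 20 UMIs, was higher, and the median log2 ratio was -0.32. In margin-like cells 11 of 41 were lower, where 20 of 41 members were, and 0 higher, with a median of -0.34. In naïve-like cells 0 were lower and 1 was higher, the thymidine kinase Tk1 at 32.7 and 50.3 CPM. Chtf18, of an alternative clamp loader, was at 20 and 6.82 CPM (-1.56) in neurogenic-like cells, and Pclaf, which binds Pcna, at 291 and 182 CPM (-0.68). Gmnn, which inhibits Cdt1, was at 116 and 56.8 CPM (-1.03) in margin-like cells. In neuronal-like cells 5 of 44 were lower and 1, Timeless at 0.60, was higher. The shares of all genes past the same limits are those given above for each class.

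Of 26 genes of the E2F family and of G1 to S control, 5 were past 1.5-fold lower and 3 higher in neurogenic-like cells, 8 of 24 lower and 2 higher in margin-like cells, and 0 lower and 1, Ccnd2 at 0.92, higher in naïve-like cells. In neuronal-like cells E2f1 (-0.97) and E2f7 (-0.63) were lower and Cdk6 (1.16) was higher, among 23. E2f1, an activator of the replication genes, was at 95.9 and 55.3 CPM (-0.79) in neurogenic-like cells, and Ccne1, the cyclin E that acts at the start of S phase, at 25.9 and 14 CPM (-0.89). The Cdk inhibitor Cdkn1c was at 152 and 558 CPM (1.88) and Ccnd2 at 28.7 and 99.2 CPM (1.79) in the same cells. The other members of the list past the limit there were E2f2 (-0.81), E2f8 (-0.62), Ccne2 (-0.66) and Cdk6 (0.65), while Ccnd1, the main cyclin D of retinal progenitors, was at 714 and 704 CPM (-0.02). Margin-like cells showed another pattern of these genes. There Ccnd1 was at 633 and 313 CPM (-1.01), Ccnd2 at 475 and 228 CPM (-1.06) and Cdkn1c at 776 and 588 CPM (-0.40). Replication genes were thus lower in both classes beside different values of Cdkn1c and the D cyclins, whose part was not tested.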

How the data were processed

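UMI counts per gene and cell were deposited by the authors for each library, made with the 10x Genomics 3' kit (version 3), Cell Ranger 3.1.0 and mm10. They are whole numbers without normalization. Kept cells had a gene number over 200 but below 6000, with less than 20% of UMIs mitochondrial, and were thinned to 2000 UMIs. CPM are thinned UMIs per 1000000. Marker sums were read in sequence, red blood-like (at least 100 UMIs), lens-like (20), macrophage-like (5), endothelial-like (4), mesenchyme-like (5) and pigment epithelium (5) first, then neuronal (20), neurogenic (6), margin (4) and naïve (5). These limits were set after the marker sums had been seen together with the members' level by class, and pigment epithelium was then split from the margin. Near the margin limit (3 to 4 UMIs) lay 400 control and 485 DKO cells. The members and all lists were chosen with earlier results of these data known.

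Ratios are of UMI sums with exact binomial intervals. Genes with at least 20 UMIs over both libraries were counted at a 1.5-fold limit. Every member past 1.5-fold in a class was named, with the 3 highest and 3 lowest per class, and other genes as examples chosen after their values were seen. Scrublet (scanpy 1.11.5) scored doublets, with automatic thresholds of 0.2422 in the control and 0.215 in the DKO. The lower one was used for both libraries. It called 397 control cells, against 331 at the control's own threshold, and 439 DKO cells, which were kept in the main values. Python 3.11.15, numpy 2.4.6, scipy 1.17.1, pandas 2.3.3 and matplotlib 3.10.9 were used, and the ratio and its interval were tested on simulated data. Alternatives were other depths, another seed, other filters, classes and limits, cells without doublets and DKO cells without a Six3 UMI. The last were set against all control cells. Promoters came from RefSeq GRCm38.p6. The study's bulk RNA-seq and imaging were not analysed here.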

Additional observations from a re-analysis of the deposited data

Results flagged for a closer look

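In 8 cases, which fell on 5 members, a log2 ratio of DKO over control was past 1.5-fold lower with an interval below 0 in one class and had an interval above 0 in another. With 1 library per genotype these differences between classes were not tested. The share of all genes that meet the same rule was not counted, so the 5 members have no background beside them. Mcm3 was at -0.65 in neurogenic-like and 0.27 in naïve-like cells. Gins2 was at -0.80 in margin-like and 0.54 in neuronal-like cells. Rrm2 was at -1.01 in neurogenic-like, -0.63 in margin-like and -0.78 in neuronal-like cells, against 0.22 in naïve-like cells. Tyms was at -0.67 in neurogenic-like and -0.60 in margin-like cells, against 0.16 in naïve-like cells. Dut was at -0.72 in margin-like and 0.10 in naïve-like cells. Over all UMIs only Rrm2 in neurogenic-like (-0.89) and margin-like cells (-0.73) stayed past 1.5-fold lower. There Mcm3 was at -0.46 in neurogenic-like cells, Gins2 at -0.43 in margin-like cells, Tyms at -0.41 and -0.53 in neurogenic-like and margin-like cells, Dut at -0.52 in margin-like cells and Rrm2 at -0.38 in neuronal-like cells.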

How the results depend on the processing

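No paired analysis was possible because there was 1 library for the control and 1 for the DKO. For the same reason no replicate could be left out. The summed ratio stayed below 0 under every alternative run in neurogenic-like (-0.93 to -0.34), margin-like (-0.78 to -0.48) and neuronal-like cells (-0.21 to -0.04), and ranged from -0.13 to 0.11 in naïve-like cells. Without thinning, the neurogenic-like ratio was -0.44, and 1 member was past 1.5-fold lower in neuronal-like cells. There the replicating shares differed by -5.01 (naïve-like), -22.0 (neurogenic-like) and -29.7 (margin-like) points, at an S phase limit of 15 UMIs. These shares were read at unequal depth, since control cells held more UMIs. The medians were 8332 and 6972 in naïve-like, 6794 and 4760 in neurogenic-like and 10138 and 7751 in margin-like cells. The part of depth in these differences was not tested. At 4000 UMIs the neurogenic-like ratio was -0.34, the count 7 and the share difference -11.9, and at 1000 UMIs that difference was -13.1. With another seed, under which the S phase limit became 5 UMIs, the naïve-like share difference was 3.38 and the neuronal-like count 8. A wider lead between class limits gave 0.11 (naïve-like), -0.37 with a count of 6 (neurogenic-like) and -0.78 (margin-like). Without 20 class markers known to change in the mutant, naïve-like cells were at -0.077 with a count of 1 and a share difference of -5.99, neurogenic-like cells at -0.65, 22 and -24.7, and margin-like cells at -0.76 and -28.4. With only DKO cells that lacked a Six3 UMI, set against all control cells, naïve-like cells were at -0.13, 2 and -9.83. In that setting neurogenic-like cells were at -0.93, 36 and -28.3, margin-like cells at -0.70, and neuronal-like cells at -0.21 and 10. Control and DKO cells that both lacked a Six3 UMI held 7.13 and 7.14 member UMIs in the naïve-like class. They held 6.53 and 3.40 in neurogenic-like, 4.06 and 3.50 in margin-like and 1.70 and 1.46 in neuronal-like cells. Of these cells 52.3% and 51.4% of naïve-like and 46.2% and 21.0% of neurogenic-like cells were in the replicating window. At a 2-fold limit the counts were 2 (neurogenic-like), 3 (margin-like) and 1 (neuronal-like). The share of all genes past the limit was not counted under any alternative, so these counts have no background beside them. Of named members whose interval did not include 0, those that changed sign were Lig1 in neuronal-like cells (-0.050 at 1000 UMIs, -0.12 with another seed), Cdt1 (0.026), Rfc2 (0.029) and Chaf1b (0.16) in margin-like cells with another seed, and Mcm3 in naïve-like cells (-0.016 without a Six3 UMI). Among named members whose interval included 0, the sign changed 21 times over 8 ratios, among them Cdc6, Mcm10 and Pola1 in margin-like and Pola2 in neurogenic-like cells. Keeping pigmented cells in the margin-like class was added after the data had been seen and left the ratio at -0.57. The control margin-like class of 319 cells limits the precision of its single genes. Of 573 recomputed ratios of single members, 519 stayed within the interval of the reported value, 48 moved past it, and 6 changed sign from an interval that did not include 0. The causes of these changes were not tested.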

Other observations

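Outside the retina, lens-like cells (300 in the control, 318 in the DKO) held 4.92 (4.67 to 5.17) and 4.33 (4.10 to 4.57) replication gene UMIs per cell. Pigment epithelium cells, split from the margin by their pigment markers, held 4.79 (4.03 to 5.66) in 29 control cells and 2.30 (1.99 to 2.65) in 83 DKO cells. Macrophage-like cells held 2.39 (1.80 to 3.11) in 23 control cells and 2.48 (2.14 to 2.86) in 75 DKO cells. In lens-like cells Ung was at 30 and 12.6 CPM from 18 and 8 UMIs, and Dut at 270.0 and 263 CPM. No test was possible with 1 library per genotype.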
